A study of Homo sapiens with 8 samples.

Results

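Retinoid genes were examined in Huh-1 cells (an established line from a human liver cell carcinoma) after depletion of the histone demethylase LSD1 under low oxygen. The 10 genes were chosen by symbol: the retinoic acid hydroxylases CYP26B1 and CYP26A1, the alcohol dehydrogenases ADH1A, ADH1C and ADH4, the retinol and retinal oxidoreductases RDH10 and DHRS3, the nuclear receptors RARB and RXRA, and the receptor cofactor NRIP1. They are 10 of the 34602 rows of the table other than control rows, and each has 1 row. Some were picked because of their difference between the groups below, so their values in that comparison are a description and carry no test. Cultures were transfected with siLSD1 or with control siRNA (siControl), and 48 h later all of them were moved to 1% O2 for 24 h. Each group has 2 biological replicates with 2 technical arrays of each, so 8 arrays stand for 4 biological samples. Cultures kept at normal oxygen are not analysed here, and the sequences and number of the siRNAs are not given in the sources used here.

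Retinoids are the metabolites and hormones made from vitamin A. Retinol is oxidised reversibly to retinal, a step that RDH10 and several alcohol dehydrogenases can carry out and that DHRS3 drives backwards, and retinal dehydrogenases of the ALDH1A family then make retinoic acid irreversibly. Retinoic acid binds a retinoic acid receptor (RAR) paired with a retinoid X receptor (RXR) on direct repeats in DNA, and CYP26 enzymes end the signal by hydroxylating retinoic acid. CYP26A1, DHRS3 and RARB are textbook targets of the pathway they belong to. In liver, hepatocytes take up and process vitamin A and stellate cells store it.

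Promoter windows of the genes were read from RefSeq (GRCh38.p14), from 250 bases before to 50 bases after each annotated start, and 9 of the 10 genes had between 1 and 4 such windows, 18 in all. They were searched on both strands for the direct repeat with a spacer of 5 bases (DR5) that RAR-RXR pairs bind, spelled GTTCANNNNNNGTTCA, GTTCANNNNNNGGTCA, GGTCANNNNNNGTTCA or GGTCANNNNNNGGTCA, where the last N belongs to the second repeat. Of the 2 windows of CYP26A1 and the 4 of RARB, only 1 each held a match. The windows of the other genes searched did not hold these letters. Which start an array row reports is not given in the sources used here. Among all 35116 windows of this length 61 (0.174%) held a DR5 match. No window of the 10 genes held the same repeats with spacers of 2 or 1 bases, spelled with 3 or 2 N in place of 6. Of all windows, 0.159% and 0.245% held those. The matching windows are printed because they carry the element through which retinoic acid acts, with the match in capitals; it begins 90 bases before the start in CYP26A1, on the opposite strand, and 52 bases before it in RARB.
CYP26A1, chr10:93073643-93073942, plus strand: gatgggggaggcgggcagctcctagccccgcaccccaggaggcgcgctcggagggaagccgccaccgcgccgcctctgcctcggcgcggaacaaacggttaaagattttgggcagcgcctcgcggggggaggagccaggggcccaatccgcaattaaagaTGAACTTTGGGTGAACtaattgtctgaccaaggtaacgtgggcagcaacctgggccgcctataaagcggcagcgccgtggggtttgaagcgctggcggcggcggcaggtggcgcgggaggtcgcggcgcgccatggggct
RARB, chr3:25428013-25428312, plus strand: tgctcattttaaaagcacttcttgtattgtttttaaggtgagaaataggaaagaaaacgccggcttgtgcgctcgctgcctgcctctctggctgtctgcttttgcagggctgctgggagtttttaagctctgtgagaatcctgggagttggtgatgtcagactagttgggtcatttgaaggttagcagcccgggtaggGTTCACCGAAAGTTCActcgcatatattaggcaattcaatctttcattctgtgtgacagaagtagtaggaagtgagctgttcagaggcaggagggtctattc

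The windows of the genes with the highest siLSD1 values relative to siControl follow. CYP26B1 is given without capitals, since none of the searched letters lie in it. ADH1A and ADH1C are near copies of each other: their windows aligned with 82.9% identity, against 52.4% and 48.6% for each with ADH4. Capitals mark the aligned bases that differ between ADH1A and ADH1C, 44 substitutions and 8 bases opposite a gap.
CYP26B1, chr2:72147813-72148112, minus strand: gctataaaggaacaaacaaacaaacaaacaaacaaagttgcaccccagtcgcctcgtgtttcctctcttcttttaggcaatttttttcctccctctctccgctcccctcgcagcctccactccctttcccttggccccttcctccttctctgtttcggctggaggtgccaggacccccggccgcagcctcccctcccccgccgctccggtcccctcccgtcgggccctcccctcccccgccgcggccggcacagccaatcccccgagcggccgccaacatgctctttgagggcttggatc
ADH1A, chr4:99290936-99291235, minus strand: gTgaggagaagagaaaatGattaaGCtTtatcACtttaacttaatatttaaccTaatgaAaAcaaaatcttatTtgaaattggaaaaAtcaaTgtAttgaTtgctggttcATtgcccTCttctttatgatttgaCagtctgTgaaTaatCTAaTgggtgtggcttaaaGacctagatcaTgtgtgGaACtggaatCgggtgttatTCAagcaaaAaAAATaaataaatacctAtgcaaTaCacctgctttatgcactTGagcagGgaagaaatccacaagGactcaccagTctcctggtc
ADH1C, chr4:99352697-99352996, minus strand: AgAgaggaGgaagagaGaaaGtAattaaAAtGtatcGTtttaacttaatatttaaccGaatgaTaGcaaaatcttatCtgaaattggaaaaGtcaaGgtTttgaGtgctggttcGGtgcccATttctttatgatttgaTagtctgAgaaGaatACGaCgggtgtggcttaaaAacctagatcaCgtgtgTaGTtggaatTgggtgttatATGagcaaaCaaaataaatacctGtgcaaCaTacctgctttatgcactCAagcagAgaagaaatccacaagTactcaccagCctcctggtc

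KDM1A, the gene of LSD1, gave signals of 1576 and 1568 on the arrays of siLSD1 replicate 1 and 1343 and 1327 on those of replicate 2, against 3920 and 3642 on those of siControl replicate 1 and 5035 and 3998 on those of siControl replicate 2. The targeted transcript was thus lower on every siLSD1 array than on any siControl array, with a log2 difference of -1.48 ± 0.17 (SE). In the limma fit of 16049 rows its adjusted p was 0.199, short of the threshold of 0.05, and it was 0.00122 with the technical arrays modelled instead of averaged. Signals here are non-normalized bead intensities, and levels are log2 values after background correction and quantile normalization. The siLSD1 replicates lay closer to each other than the siControl replicates did: over rows, their log2 gap had an SD of 0.18 in siLSD1 and 0.48 in siControl. The array median signal was 167.9 to 179.9. Of 10 hepatocyte markers, 9 were brighter than every ERCC row (unused control rows that show background) on all 8 arrays, HNF4A on 5 of 8. The markers' summed signal was 195980 to 205560 on siLSD1 arrays and 173310 to 194690 on siControl arrays, most of it from ALB and TF. Single markers differed in size and direction. APOH, a plasma glycoprotein, gave 6964 to 8382 on siLSD1 arrays and 2782 to 3604 on siControl arrays, a log2 difference of 1.33. The log2 difference was 0.78 for FGB, 0.54 for APOB, 0.32 for SERPINA1 and -0.30 for AFP, and the signals of each overlapped between the groups. For ALB, TF, APOA1, TTR and HNF4A it lay between -0.06 and 0.06. Their part in the results below was not tested. Of 8 stellate cell markers only LUM was above every ERCC row on all arrays, and DES, PDGFRB, COL3A1 and ACTA2 were above them on 0 arrays. The stellate markers summed to 2004 to 2275 on siLSD1 arrays and 2019 to 2390 on siControl arrays. Among 10 markers of blood and endothelial cells, CD68 and LYZ were above the ERCC rows on every array, and PTPRC, CD3E, VWF, KDR and CDH5 on none. Their summed signal was 2911 to 3111 on siLSD1 arrays and 3082 to 3837 on siControl arrays. In bulk RNA, fewer cells of a type and less RNA per cell cannot be told apart.

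**Figure D1:**
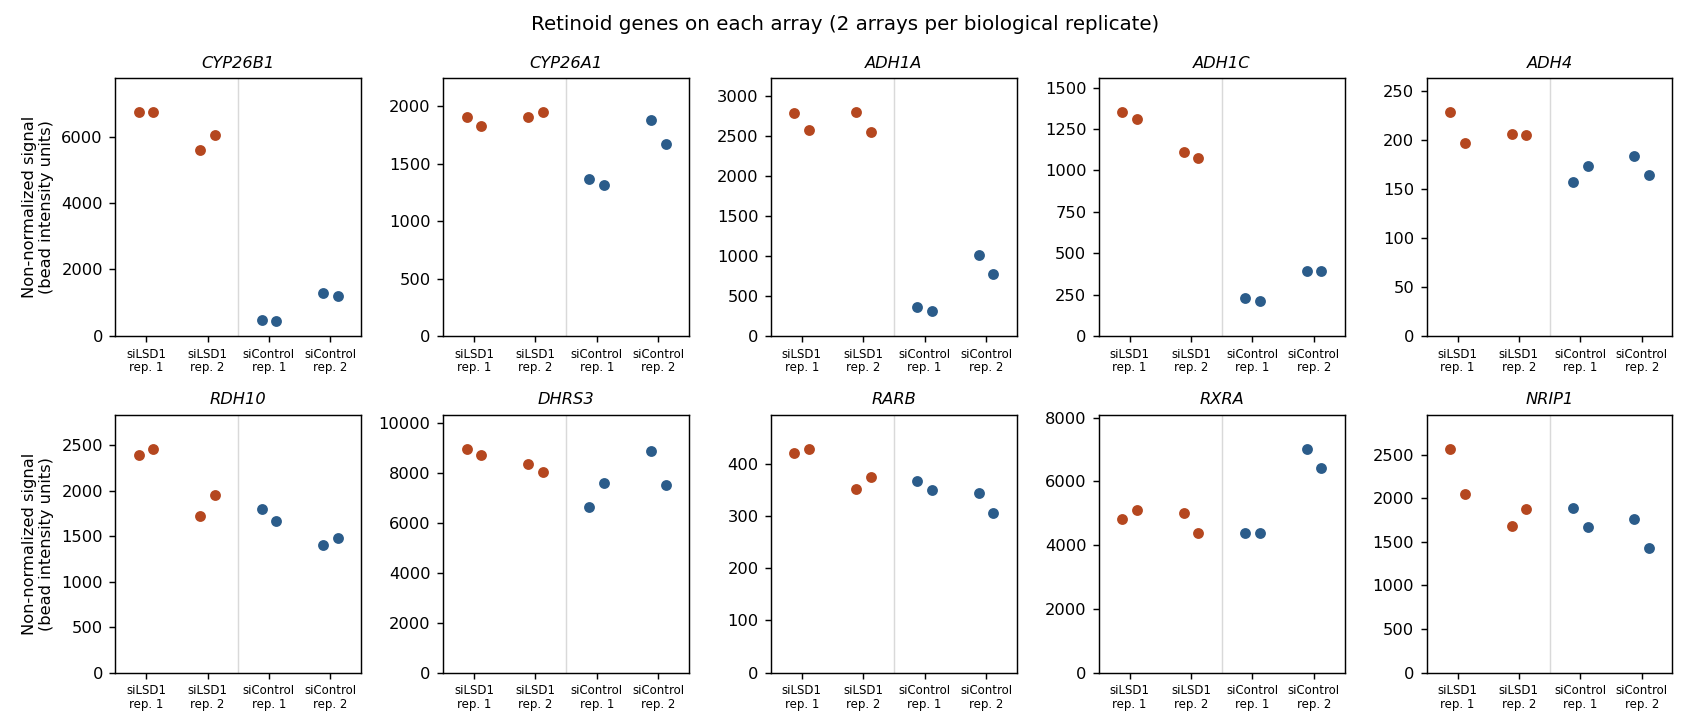
Non-normalized signal (bead intensity units, linear axis from 0) of the 10 genes on each of the 8 arrays, 2 points for the 2 technical arrays of each biological replicate, siLSD1 on the left of each panel. CYP26B1, ADH1A and ADH1C are far higher in both siLSD1 replicates, with siControl replicate 2 between them and siControl replicate 1, while RXRA is high in siControl replicate 2 alone.

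CYP26B1, which hydroxylates retinoic acid and so removes it, was the gene with the widest gap. Its signal was 6743 and 6744 in siLSD1 replicate 1 and 5587 and 6063 in replicate 2, against 479 and 449 in siControl replicate 1 and 1300 and 1202 in replicate 2. Every siLSD1 array was above every siControl array, and the siControl replicates were themselves 2.82-fold apart, a log2 gap of 1.49. That gap was 0.49 with limma's neqc background and normalization step, which draws on the deposited detection p-values. In the other processing settings it was 1.41 to 1.57. The level was 12.63 ± 0.08 in siLSD1 and 9.50 ± 1.06 in siControl (SD, n = 2 each), a log2 difference of 3.13 ± 0.48 (SE), or 8.76-fold. Against siControl replicate 1 alone it was 14.7-fold and against replicate 2 alone 5.22-fold, so the size rests on which control is used although the direction does not. In rank this was place 2 of the 16049 rows tested, ordered from the highest difference.

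CYP26A1, the other main retinoic acid hydroxylase and the gene with the DR5 match at -90 in 1 of its 2 windows, had a smaller difference. Signals were 1906 and 1828 in siLSD1 replicate 1 and 1904 and 1951 in replicate 2, against 1369 and 1314 in siControl replicate 1 and 1881 and 1676 in replicate 2. The siLSD1 arrays stood well above siControl replicate 1 and beside replicate 2, and at the level of single arrays the groups overlapped. The level was 10.90 ± 0.15 in siLSD1 and 10.54 ± 0.34 in siControl (SD, n = 2 each), a log2 difference of 0.36 ± 0.21 (SE). Set against single controls it was 0.60 (siControl replicate 1) and 0.11 (siControl replicate 2). The controls were 0.49 apart, more than the group means. CYP26C1, the third gene of the family, was not above every ERCC row on any array.

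ADH1A encodes the alpha subunit of the class I alcohol dehydrogenases, liver enzymes that oxidise ethanol and also retinol. Its signal was 2784 and 2569 in siLSD1 replicate 1 and 2800 and 2544 in replicate 2, against 367 and 310 in siControl replicate 1 and 1007 and 771 in replicate 2. The groups did not overlap, and siControl replicate 2 lay 2.74-fold above replicate 1, a log2 gap of 1.46. That gap was 0.31 with neqc and 1.34 to 1.57 in the other processing settings. The level was 11.39 ± 0.11 in siLSD1 and 8.98 ± 1.03 in siControl (SD, n = 2 each), a log2 difference of 2.41 ± 0.47 (SE), or 5.31-fold. The fold was 8.80 against siControl replicate 1 and 3.21 against replicate 2.

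ADH1C, which encodes the gamma subunit of the same class, also had siControl replicate 2 between siControl replicate 1 and siLSD1. Its siLSD1 replicates were in the other order: replicate 2 minus replicate 1 was -0.12 on the log2 scale, against 0.15 for ADH1A. The ADH1C signal was 1353 and 1310 in siLSD1 replicate 1 and 1110 and 1074 in replicate 2, against 227 and 212 in siControl replicate 1 and 391 and 394 in replicate 2. Again the groups did not overlap. On the arrays of siControl replicate 1 the ADH1C signals, 227 and 212, were near the brightest ERCC row, at 222 and 179.9. The fold against that replicate thus rests on signals near background. The level was 10.21 ± 0.09 in siLSD1 and 7.98 ± 0.64 in siControl (SD, n = 2 each). The log2 difference was 2.22 ± 0.31 (SE), or 4.67-fold, with 6.38-fold and 3.42-fold against siControl replicates 1 and 2. The probes of ADH1A and ADH1C are not given in the sources used here and may bind both transcripts, so their values may not be independent. With neqc the log2 difference of siLSD1 minus siControl was 1.44 for ADH1A and 0.56 for ADH1C, and the gap between the siControl replicates of ADH1C was 0.09, against 0.90 in the main setting. In the other processing settings the difference was 2.31 to 2.51 for ADH1A and 2.05 to 2.40 for ADH1C. The ADH1C gap was 0.75 to 1.04 in them.

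ADH4, a class II alcohol dehydrogenase with a high capacity for retinol, was dim. Its signal was 229 and 197 in siLSD1 replicate 1 and 206 and 205 in replicate 2, against 157 and 174 in siControl replicate 1 and 184 and 164 in replicate 2. It was brighter than every ERCC row on all 4 siLSD1 arrays and on 0 of 4 siControl arrays, so siControl has only a bound. The gene entered the tested rows through siLSD1 alone. On the first array of siLSD1 replicate 1 it gave 228.6 against an ERCC maximum of 227.8. On the first array of siControl replicate 2 it gave 183.9 against 184.4. The other siLSD1 arrays gave 197, 206 and 205 against 177.9, 163.6 and 171.2. With margins this narrow, the split is not read as presence against absence. The level was 7.39 ± 0.0058 in siLSD1 and 7.02 ± 0.025 in siControl (SD, n = 2 each), which is at least 1.12-fold higher in siLSD1 when the siControl arrays are set to the dimmest signal above the ERCC rows. Both SDs compare averages of technical arrays, which lay up to 0.23 apart on the log2 scale. They are smaller than that gap and say little about precision. After neqc the log2 difference of ADH4 was 0.02.

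The 3 ADH genes described lie with ADH5, ADH6, ADH1B and ADH7 in a run of 7 protein-coding genes on chromosome 4, and the order in RefSeq is ADH5, ADH4, ADH6, ADH1A, ADH1B, ADH1C, ADH7. ADH1B, which lies between ADH1A and ADH1C and whose window is 82.5% identical to that of ADH1A, gave 113 to 145 on siLSD1 arrays and 120 to 142 on siControl arrays, below the brightest ERCC row on every array. ADH7 was above every ERCC row on 1 siLSD1 array and on 0 siControl arrays. ADH6 gave 442, 465, 406 and 360 on siLSD1 arrays and 288, 245, 385 and 372 on siControl arrays, a log2 difference of 0.44 ± 0.21 (SE; limma adjusted p = 0.517). ADH5, the class III enzyme that clears formaldehyde as well, had a log2 difference of 0.33 ± 0.17 (SE; limma adjusted p = 0.537). Neither passed the test. Their normalized siLSD1 arrays lay above their siControl arrays, as for 12% of all rows. The gap was thus wide at ADH1A and ADH1C and not at the neighbour between them, which stayed in the background range.

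**Figure D2:**
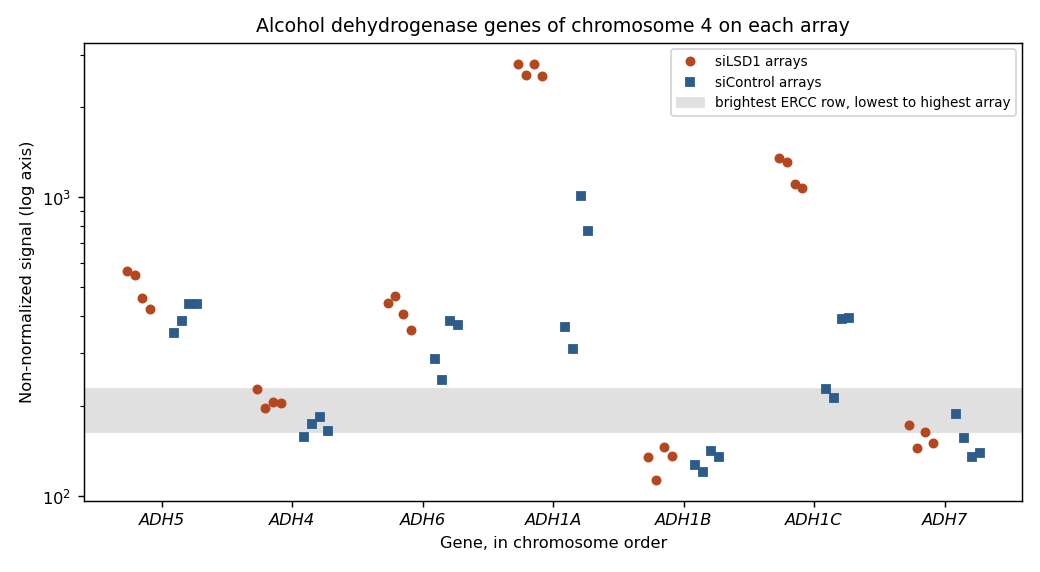
Non-normalized signal (log axis) of the 7 alcohol dehydrogenase genes in their order along chromosome 4, with 4 siLSD1 arrays (circles, left) and 4 siControl arrays (squares, right) per gene; the grey band runs from the lowest to the highest array's brightest ERCC row. ADH1A and ADH1C separate widely, with ADH1C of siControl replicate 1 inside the band. ADH5 and ADH6 separate little, and ADH4, ADH1B and ADH7 lie near or below the band.

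RDH10, the dehydrogenase that makes most retinal from retinol in the embryo, in mice, gave 2395 and 2464 in siLSD1 replicate 1 and 1726 and 1952 in replicate 2, against 1800 and 1674 in siControl replicate 1 and 1400 and 1480 in replicate 2. Before normalization siLSD1 replicate 2 overlapped siControl replicate 1, and after it all 4 siLSD1 arrays were above the siControl arrays. The level was 11.05 ± 0.17 in siLSD1 and 10.56 ± 0.12 in siControl (SD, n = 2 each), a log2 difference of 0.49 ± 0.16 (SE). It was 0.41 against siControl replicate 1 and 0.58 against replicate 2, so here replicate 2 was the lower control.

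DHRS3 reduces retinal back to retinol and opposes RDH10. Its signal was 8953 and 8708 in siLSD1 replicate 1 and 8326 and 8041 in replicate 2, against 6625 and 7592 in siControl replicate 1 and 8874 and 7498 in replicate 2. The arrays of the 2 groups overlapped. The level was 13.07 ± 0.04 in siLSD1 and 12.86 ± 0.20 in siControl (SD, n = 2 each). The log2 difference was 0.21 ± 0.16 (SE), or 0.35 and 0.075 against siControl replicates 1 and 2, which were 0.28 apart.

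RARB, the receptor with the DR5 match at -52, gave 421 and 429 in siLSD1 replicate 1 and 351 and 374 in replicate 2, against 367 and 350 in siControl replicate 1 and 345 and 305 in replicate 2. The groups overlapped array by array. The level was 8.46 ± 0.08 in siLSD1 and 8.23 ± 0.17 in siControl (SD, n = 2 each), a log2 difference of 0.24 ± 0.16 (SE), about as large as the difference of -0.24 for siControl replicate 2 minus replicate 1. After neqc it was 0.029.

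RXRA, the partner that RARs share with several other nuclear receptors, gave 4809 and 5097 in siLSD1 replicate 1 and 5003 and 4390 in replicate 2, against 4372 and 4384 in siControl replicate 1 and 7027 and 6437 in replicate 2. The siLSD1 arrays were close to siControl replicate 1 and below replicate 2. The level was 12.25 ± 0.03 in siLSD1 and 12.36 ± 0.51 in siControl (SD, n = 2 each). Its log2 difference of -0.11 ± 0.26 (SE) is the mean of 0.25 against siControl replicate 1 and -0.47 against replicate 2, so no direction can be given.

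NRIP1, also called RIP140, represses nuclear receptors that have bound their ligand. It gave 2567 and 2051 in siLSD1 replicate 1 and 1677 and 1878 in replicate 2, against 1886 and 1665 in siControl replicate 1 and 1764 and 1427 in replicate 2. After normalization all siLSD1 arrays were above all siControl arrays, before it they overlapped. The level was 10.99 ± 0.15 in siLSD1 and 10.64 ± 0.04 in siControl (SD, n = 2 each). The log2 difference was 0.34 ± 0.15 (SE), with 0.31 and 0.37 against siControl replicates 1 and 2.

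**Figure D3:**
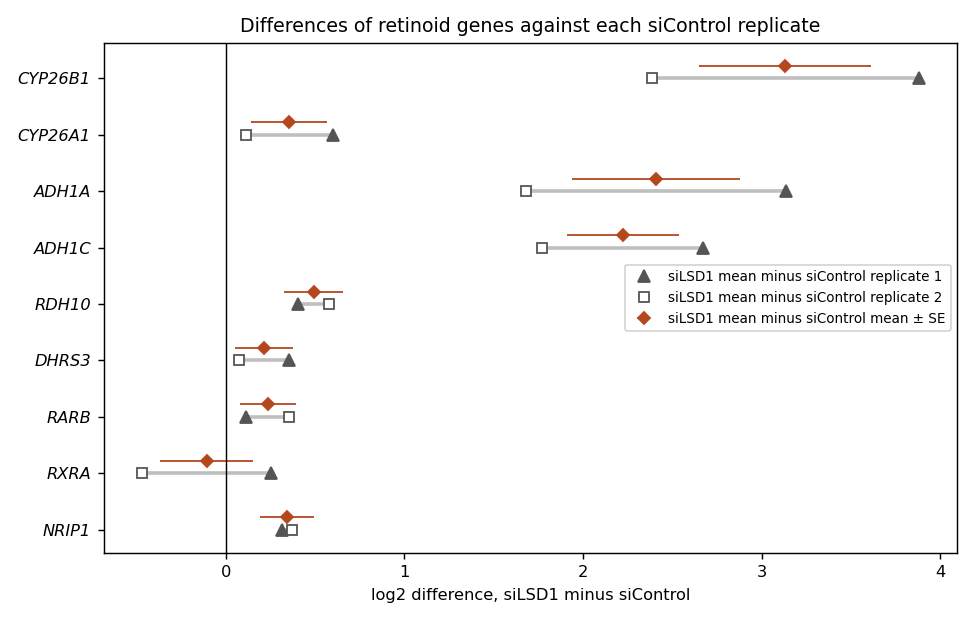
Log2 difference of siLSD1 minus siControl for 9 of the genes, without ADH4, which has only a bound in siControl, against siControl replicate 1 (triangles), siControl replicate 2 (open squares) and the siControl mean with its standard error (diamonds). The pair lies close together for NRIP1, spreads by over 1 log2 unit for CYP26B1 and ADH1A, and lies on opposite sides of 0 for RXRA.

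Over the 10 genes the estimate was higher in siLSD1 for 9 and lower for RXRA, where 51.1% of all rows tested were higher. The difference exceeded 2-fold for CYP26B1, ADH1A and ADH1C, all higher, and downward for 0 genes, against 0.754% and 0.685% of all rows. All 4 siLSD1 arrays lay above all siControl arrays for 6 genes (CYP26B1, ADH1A, ADH1C, ADH4, RDH10 and NRIP1), against 12% of all rows. ADH4 is in these counts although it has only a bound in siControl. With technical arrays averaged, the siLSD1 pair lay wholly above the siControl pair for 9 genes and wholly below it for 0, against 22.1% and 20.6% of all rows. These counts use the contrast by which the genes were picked, and nothing is read from them. Between the siControl replicates, replicate 2 was higher for 7 genes and lower for RDH10, RARB and NRIP1. It was over 2-fold higher for CYP26B1 and ADH1A and over 2-fold lower for 0 genes, against 2.85% and 1.77% of all rows, and the siLSD1 replicates were over 2-fold apart for 0 genes, against 0.00623% of all rows. With neqc neither siControl gap was over 2-fold, at 0.49 and 0.31 on the log2 scale. In the other processing settings both stayed over 2-fold, at 1.41 to 1.57 for CYP26B1 and 1.34 to 1.57 for ADH1A. The siControl replicates were further apart than the group means for CYP26A1, DHRS3, RARB and RXRA, 4 of 10 genes, and for 64.4% of all rows. The siLSD1 replicates were 0.24 apart at most, in RDH10, and technical arrays of a sample 0.29 at most, in ADH1A, on the log2 scale.

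Another 79 genes of retinoid handling and response were listed by role, not picked gene by gene for their values though with earlier results of these data known, and 53 were bright enough to be tested. None of them passed limma's test across all rows at an adjusted p of 0.05 in either direction, as for 0% of all rows. At an unadjusted p under 0.05 there were 6 higher and 6 lower, against 5.72% and 5.74% of all rows. With technical arrays modelled instead of averaged, 0 were called higher and RDH5, PLAAT4 and EGR1 lower, 3 genes, against 1.57% and 1.55% of all rows. Estimates were higher for 31 and lower for 22, with a median log2 difference of 0.08, against 0.0057 over all rows. Set against siControl replicates 1 and 2 singly, that median was 0.11 and -0.02. All siLSD1 arrays were above all siControl arrays for 16 of the 53 and below for 6, against 12% and 11.5% of all rows.

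Among enzymes that make retinoic acid, ALDH1A1 was the 1 retinal dehydrogenase tested, with signals of 43288, 43356, 44252 and 44739 on siLSD1 arrays and 31475, 29981, 44311 and 37012 on siControl arrays. Its log2 difference was 0.33 ± 0.15 (SE; limma adjusted p = 0.485). ALDH1A2 was above every ERCC row on 1 array of each group and ALDH1A3 on 0 arrays. Of 13 oxidoreductases tested, 7 had higher and 6 lower estimates. RDH5, which oxidises 11-cis-retinol in the eye, gave 1191, 1197, 1280 and 1182 on siLSD1 arrays and 1980, 2085, 1956 and 1694 on siControl arrays. Its log2 difference was -0.63 ± 0.15 (SE; limma adjusted p = 0.291), or -0.66 and -0.61 against siControl replicates 1 and 2.

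RARA and RXRB, the receptors of the wider list that were tested, had higher estimates in siLSD1, and neither passed the test. RARA, the most widely expressed RAR, gave 596, 607, 615 and 592 on siLSD1 arrays and 477, 469, 523 and 483 on siControl arrays, a log2 difference of 0.35 ± 0.15 (SE; limma adjusted p = 0.458). RXRB stood at 0.18 ± 0.14 (SE; limma adjusted p = 0.717), and RARG was not above every ERCC row on any array. The estimates of 7 of 9 coregulators were higher and those of 2 lower. NCOA3, a coactivator that binds liganded receptors, had 0.61 ± 0.24 (SE; limma adjusted p = 0.427), or 0.92 and 0.30 against siControl replicates 1 and 2.

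**Figure D4:**
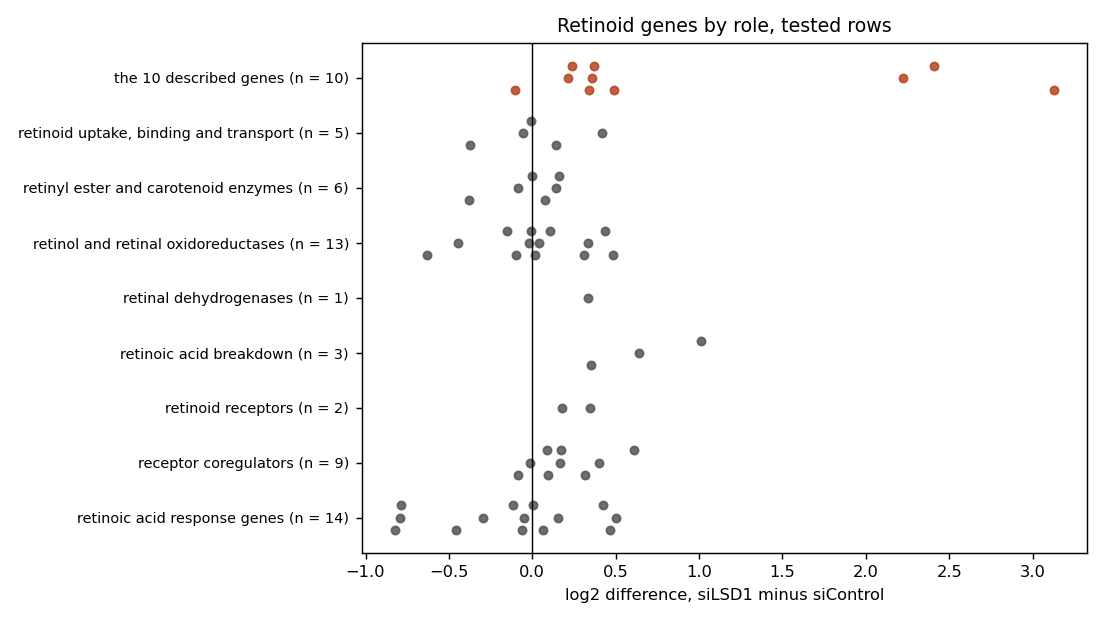
Log2 difference of siLSD1 minus siControl for the 10 genes described (top row) and for the tested genes of each role in the wider list, 1 point per gene, with points offset vertically for visibility. CYP26B1, ADH1A and ADH1C lie above 2, UGT2B7 is the highest of the other genes, and retinoic acid response genes spread to both sides of 0.

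Genes described elsewhere as responsive to retinoic acid did not share a direction. Of 22 listed, 14 were bright enough to be tested, and 6 were higher and 8 lower, with a median of -0.06. Set against siControl replicates 1 and 2 singly, that median was 0.06 and -0.14, so its sign rests on the control used. PLAAT4, a phospholipase that retinoids induce, gave 933, 965, 919 and 865 on siLSD1 arrays and 1571, 1378, 1834 and 1608 on siControl arrays, a log2 difference of -0.79 ± 0.17 (SE; limma adjusted p = 0.259). The immediate-early factor EGR1 stood at -0.80 ± 0.14 (SE; limma adjusted p = 0.238) and the antiproliferative gene BTG2 at -0.83 ± 0.26 (SE; limma adjusted p = 0.355). ICAM1, an adhesion molecule, stood at 0.50 ± 0.16 (SE; limma adjusted p = 0.369). These 4 were named because their arrays did not overlap and they differed by at least 0.5. Of the 14 genes, 3 had all siLSD1 arrays above the siControl arrays and 3 below, against 12% and 11.5% of all rows. The other 2 above, BHLHE40 at 0.47 ± 0.14 (SE; limma adjusted p = 0.350) and PDK4 at 0.42 ± 0.15 (SE; limma adjusted p = 0.388), were named after their values were seen. UGT2B7, which conjugates retinoids and many drugs, had 1.01 ± 0.52 (SE; limma adjusted p = 0.547), or 1.83 and 0.20 against siControl replicates 1 and 2; its probes may also bind other UGT2B genes.

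Across the 8 arrays the rows whose levels ran most like CYP26B1 were, among 2057 others whose levels spanned at least 1 log2 unit, ADH1C (r = 0.998), RERE (r = 0.997), DUSP6 (r = 0.997), PDGFB (r = 0.996) and TUBB3 (r = 0.996). These correlations describe 8 arrays of 4 samples in 2 groups and share that structure. RERE, a nuclear receptor coregulator, gave 2908, 2733, 2268 and 2371 on siLSD1 arrays and 1099, 1012, 1576 and 1444 on siControl arrays. DUSP6, a phosphatase of ERK kinases, gave 1658, 1747, 1437 and 1485 on siLSD1 arrays and 742, 718, 1025 and 891 on siControl arrays. Both have siControl replicate 2 between siControl replicate 1 and siLSD1, an order that the choice by correlation with CYP26B1 fixes. Of the other genes described, r with CYP26B1 was 0.992 for ADH1A, 0.871 for ADH4, 0.854 for CYP26A1, 0.826 for DHRS3, 0.778 for RDH10, 0.745 for NRIP1, 0.535 for RARB and 0.113 for RXRA. The value of ADH4 uses siControl signals in the background range.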

How the data were processed

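Total RNA was labelled with biotin and hybridised to Illumina bead arrays. The authors deposited linear bead intensity, before normalization, with a detection p-value per row and array, and a second table of intensity made comparable between arrays by a method not given in the sources used here. BeadStudio 3.1.1.0 was used, per the submitters' processing notes. The array type, the step from probes to symbols and the way the deposited detection p-value was computed are not given in the sources used here.

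Intensities were background-corrected (normexp, offset 50), quantile normalized and put on the log2 scale. Rows brighter than every 1 of the 92 ERCC rows on at least 4 of 8 arrays were tested, 16049 in all. The deposited detection p-values were not used for this, because of 12255 rows that outshone the ERCC rows on all arrays, 761 never reached a detection p under 0.01. Row names were updated through RefSeq symbols (17762 current, 2735 older, 720 ambiguous, 13385 without a match); KDM1A is AOF2 in the tables.

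After averaging technical arrays, siLSD1 was set against siControl, 2 biological samples against 2, with limma 3.58.1 in R 4.3.3 (lmFit and eBayes, two-sided, Benjamini-Hochberg over all rows tested, threshold 0.05); SE is that fit's. Nothing in the labels says what separates biological replicates, so p-values measure only the spread between these samples. The exact permutation test of 2 against 2 cannot go below p = 0.333, and the number of biological samples limits precision. The 10 genes, the lists and the tests were chosen with earlier results of these data known. Named by rule were the 10 genes, KDM1A, 11 fixed relatives, other listed genes whose arrays did not overlap with a log2 difference of at least 0.5, and the 5 rows most correlated with CYP26B1. The fit was run on simulated data with the same spread in both groups. That run does not cover the unequal spread of siLSD1 and siControl seen here. Alternatives covered background correction, normalization (neqc and the authors' values included), the filter, technical replicates, the replicate number as a block, and leaving out samples or arrays. The timing sentence of the siLSD1 labels names the control siRNA, while their titles and treatment labels name siLSD1, which was used.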

Additional observations from a re-analysis of the deposited data

How the results depend on the processing

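Under the other background corrections and normalizations tried, 9 of the 10 genes stayed higher in siLSD1 and RXRA lower. The filter does not enter these differences, so it could not change them. Under these settings and the other filters, 0 of all genes and 0 of the other retinoid genes were called. In the main setting limma's count at an unadjusted p under 0.05 was 1839, and it was 2932 with no filter, which tests 34602 rows. Modelling technical arrays gave 501 called genes, 3 of them other retinoid genes (RDH5, PLAAT4 and EGR1, all lower). Leaving out each biological sample or array in turn gave 0 to 5617 called genes and 0 to 25 other retinoid genes; calls appeared only without siControl biological replicate 1 (2320 and 12) or 2 (5617 and 25), where the spread of the 1 siControl sample left is assumed equal to that of siLSD1. The log2 difference of RXRA ran from -0.47 to 0.25 when samples or arrays were left out, and without siControl biological replicate 2 it was 0.25, with all 10 genes higher. With neqc, which takes its background from the deposited detection p-values and changes the offset too, the log2 difference was 0.56 for ADH1C, 1.44 for ADH1A, 0.02 for ADH4 and 0.029 for RARB. Some bright rows never reached a detection p under 0.01, as given above. The siControl gap (replicate 2 minus 1) with neqc was 0.49 for CYP26B1, 0.31 for ADH1A and 0.09 for ADH1C. With the other background corrections and normalizations it was 1.41 to 1.57, 1.34 to 1.57 and 0.75 to 1.04 for these genes. With a normexp offset of 16 the siLSD1 minus siControl difference was 2.51 for ADH1A and 2.40 for ADH1C. It was 2.31 and 2.05 with no background correction, and 2.37 and 2.07 with the authors' values. The cause was not tested. The difference of CYP26B1 ran from 2.96 to 3.20 over all processing settings. The replicate numbers give only 2 pairs and nothing in the labels says that they pair samples; same-number deviations correlated at 0.12 over rows, and the replicate block gave 0 called genes and changed no other call.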

Other observations

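A DR5 match in a RefSeq promoter window was also found in 56 genes outside the 10, chosen by sequence alone, and 18 of them were bright enough to be tested. Estimates were higher in siLSD1 for 9 and lower for 9, with a median log2 difference of 0.02 against 0.0057 over all rows. By limma 0 of the 18 were called, 1 was higher at an unadjusted p under 0.05 and 0 were lower, against 5.72% and 5.74% of all rows. All siLSD1 arrays were above all siControl arrays for 4 of these genes and below for 1, against 12% and 11.5% of all rows. The 1 gene at an unadjusted p under 0.05 was CYB5R2, a cytochrome b5 reductase gene, at 0.56 ± 0.20 (SE; limma adjusted p = 0.405); MAPK9, which encodes the kinase JNK2, was the 1 gene with lower siLSD1 arrays, at -0.37. Both were picked out after their values were seen.

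RARA was bright on every array, at 469 to 615, yet its deposited detection p was under 0.01 on 0 of 8 arrays, while ADH4, at 197 to 229 on siLSD1 arrays, was under 0.01 on all 4 of these. CYP26B1, ADH1A, ADH1C, CYP26A1, RDH10, DHRS3, RARB, RXRA and NRIP1 were under 0.01 on all 8 arrays.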
